A study of Saccharomyces cerevisiae with 6 samples.

Results

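The genes examined here build the peroxisome of budding yeast or burn fatty acids inside it. They were picked by name, with earlier results of these data known. The rule took every Saccharomyces cerevisiae gene called PEX followed by digits. It added 16 named genes of fatty acid oxidation, its transport steps, its transcription factors and peroxisome inheritance. The arrays measured 41 genes of the rule, 25 PEX genes and the 16 others, among 5449 yeast genes, each with 1 probe set. Any other gene that matches the rule was not analysed here.

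Peroxisomes are the only place where yeast oxidises fatty acids. Proteins called peroxins, the products of the PEX genes, insert the organelle's membrane proteins, carry folded enzymes into its matrix with shuttling receptors, and set its number and size. When cells grow on a fatty acid such as oleate, the transcription factors Oaf1 and Pip2 bind as a pair to the promoters of many of these genes and, with Adr1, raise them, whereas glucose keeps the oxidation enzymes repressed.

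RNA came from 6 samples labelled BY4743, a diploid laboratory strain given in the labels as MATa/α his3Δ1 leu2Δ0 met15Δ0 ura3Δ0 lys2Δ0. All 6 grew for 2 days at 25 °C in YPD, a rich glucose medium, with 0.01% of the detergent SDS, and each was measured on 1 single-colour array. In the control group (n = 3) cells were untreated and the FastRNA Pro Red kit gave the total RNA. In the zymolyase group (n = 3) cells were first held for 20 min at 25 °C with zymolyase, a mixture of enzymes that breaks down wall glucan, and the MagExtractor kit was then used. The effects of enzyme and kit cannot be told apart, and "rose" or "fell" below means zymolyase with MagExtractor against control with Pro Red. No label says that the 3 samples of a group were grown separately. The p-values therefore cover only sample-to-sample spread, possibly of a technical kind. In bulk RNA, fewer cells with a transcript and less transcript per cell cannot be told apart either.

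The strain label was not borne out by all transcripts. LEU2 and URA3, whose labelled alleles lack the coding sequence, had signals of at least 370.9 on every array, and the 4 alpha-specific genes, which a MATa/α diploid represses, had signals of 1485.4 to 7412.3. The 7 a-specific genes, also repressed in such a diploid, had signals of 8.0 to 133.8. The background, read as the 95th percentile of the second species' probe sets, was at most 10.9, and the lowest signal of any of the 41 genes on any array was 51.8. Transcript ends were also uneven between the groups. The log2 ratio of 3′ to 5′ signal, averaged over 8 yeast control genes, was 0.58, 0.99 and 0.99 on the control arrays, and 2.19, 2.85 and 2.75 on the zymolyase arrays, a difference of 1.74 (SE 0.25). The exact permutation test, two-sided, gave p = 0.1, the smallest that 3 against 3 can give. This ratio moved with every group difference given below, and its part in them was not tested.

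Of the 41 genes, 8 rose, 3 fell and 30 did not pass (limma on log2 signal, adjusted p under 0.05 over all 5449 genes). The 8 that rose were the transcription factor genes PIP2 and OAF1 and the peroxin genes PEX19, PEX14, PEX25, PEX6, PEX30 and PEX8. The 3 that fell were PEX17, PEX32 and ANT1, the last for the peroxisomal carrier of adenine nucleotides. None of the 7 enzymes of fatty acid oxidation passed in either direction by limma, also at an unadjusted p under 0.05, which 27.1% of all genes met as higher and 24.2% as lower. Calls were common in this comparison, at 42.5% of all genes, with 22.5% higher and 20.0% lower, so the 26.8% called here is no sign that these genes responded more than others. Their median log2 change was 0.06, beside 0.04 for all genes.

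The counts depended on the processing, though not under every rescaling. Quantile normalization gave 7 of the 41 genes higher and 4 lower, near the deposited scaling, where 1156 and 1244 of all 5449 genes were. Centring each array on its median gene lowered every change by 0.16 on the log2 scale, after which 7 of the 41 genes were higher and 10 lower, where 17.5% of all genes were higher and 26.8% lower. With the replicate number as a block, 12 were higher and 7 lower, beside 31.2% and 27.3% of all genes. All 11 genes called on the deposited scaling kept their direction under each of the 15 alternatives that tested them. For all 11 the control and zymolyase arrays did not overlap, but they were called on these same arrays, so this adds no support. In all, 8 of the 41 genes had every zymolyase array above every control array and 7 every one below, where 27.2% and 25.7% of all genes did so.

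**Figure D1:**
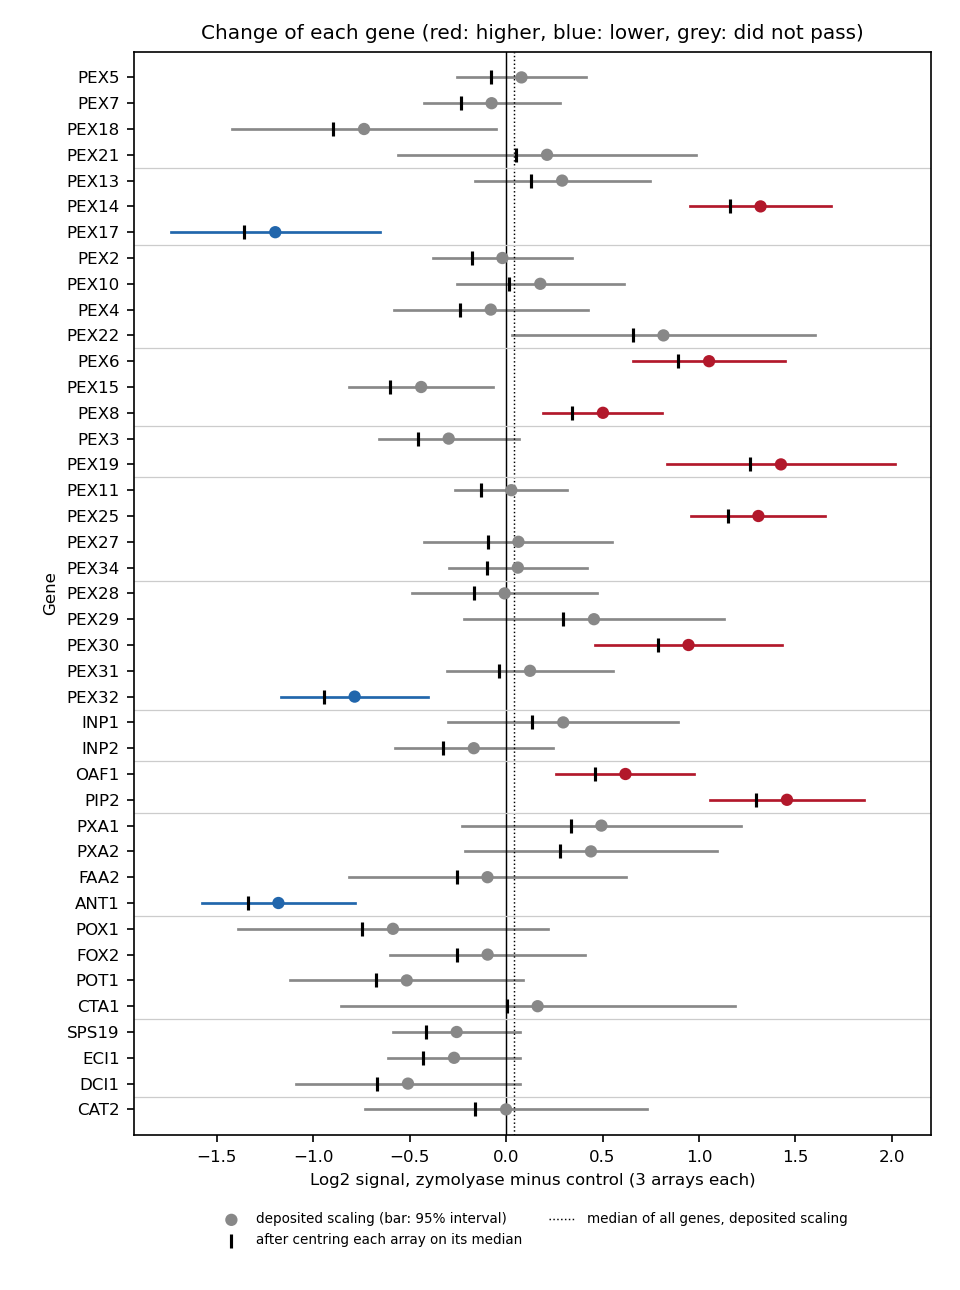
Log2 signal of zymolyase minus control for each of the 41 genes, with its 95% interval from limma (3 arrays a group), ordered by role. PIP2 at 1.46 and PEX19 at 1.43 lie farthest right, PEX17 at -1.20 and ANT1 at -1.18 farthest left, and the black ticks, the values after centring each array on its median, all lie 0.16 to the left of the points.

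Both transcription factors of the oleate response rose. PIP2 had signals of 237, 169 and 186 on the control arrays and 534, 545 and 527 on the zymolyase arrays. The zymolyase arrays lay within a narrow band above every control array, and the rise was 2.74-fold (log2 1.46, SE 0.17, limma adjusted p = 0.00110, 2.50e-07 to 0.00812 over the alternatives). OAF1, whose protein pairs with Pip2 and senses fatty acids, went from 326, 336 and 375 to 599, 485 and 512, a rise of 1.54-fold (log2 0.62, SE 0.15, limma adjusted p = 0.0144, 0.00849 to 0.633 over the alternatives). These are long genes, of 2991 and 3144 bases, and longer genes rose more on these arrays. With the length trend removed, PIP2 rose by 0.95 and passed, whereas OAF1 had a change of 0.10 and did not. OAF1 also missed the threshold without control array 2 (0.60).

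The log2 ratio of PIP2 to OAF1 within an array does not depend on array scaling. It was -0.46, -0.99 and -1.01 (control) and -0.17, 0.17 and 0.04 (zymolyase), a difference of 0.84 (SE 0.21, exact permutation p = 0.1, the smallest possible). All 3 zymolyase arrays were above all 3 control arrays. This ratio and those of 2 more gene pairs below were chosen after the values were seen.

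**Figure D2:**
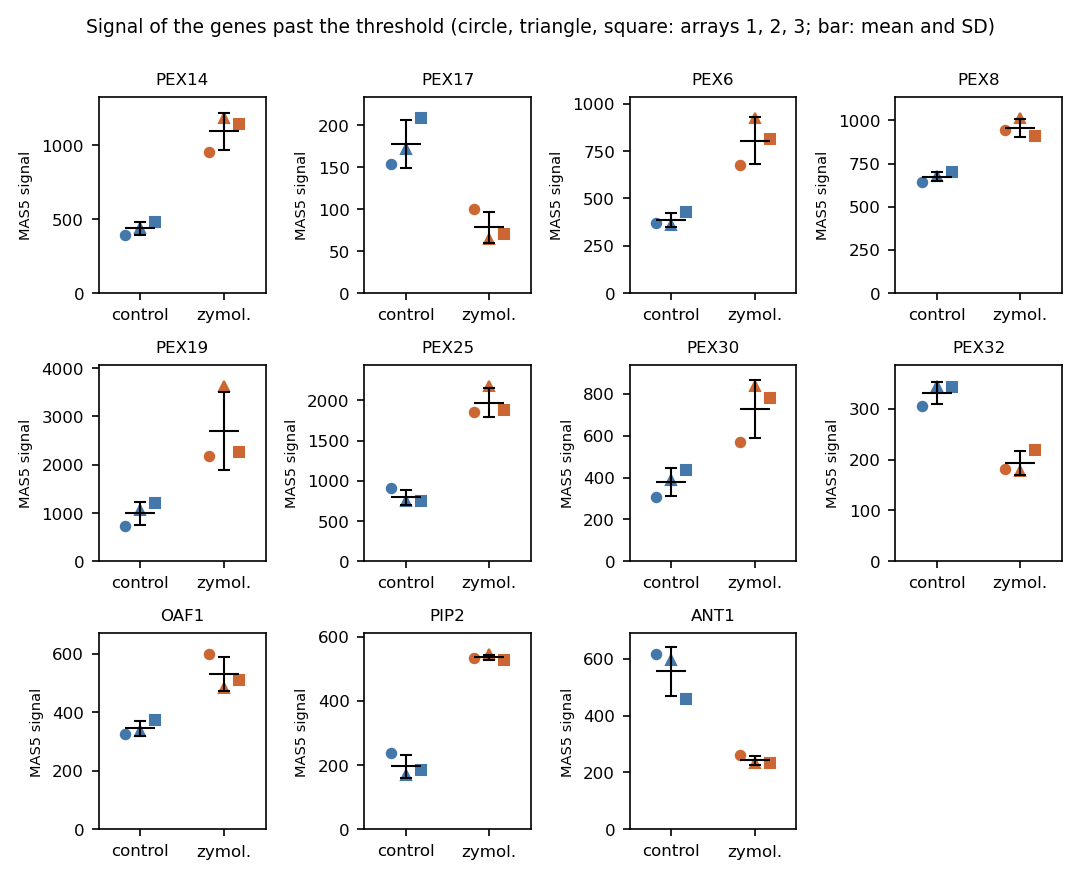
MAS5 signal on a linear axis from 0 for the 11 genes past the threshold, with 1 point an array and the mean with its SD. In each panel the 3 control and 3 zymolyase points are separate: PIP2 moves from 169 to 237 up to 527 to 545, and ANT1 from 457 to 615 down to 233 to 262.

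Enzymes bound for the peroxisome matrix are first met by receptors in the cytosol. None of the 4 receptor genes measured passed by limma, where 42.5% of all genes did, with 1, PEX18, at an unadjusted p under 0.05. PEX5, the receptor for the common C-terminal signal, had mean signals of 676 ± 18.5 in control and 717 ± 76.9 in zymolyase arrays (SD, n = 3), a log2 change of 0.08 with a 95% interval of -0.25 to 0.41. PEX7, the receptor for the N-terminal signal carried by the thiolase Pot1, had a log2 change of -0.08 (-0.43 to 0.28). For both, the interval leaves out a 2-fold change in either direction. Of the helpers that Pex7 needs, PEX21 had a log2 change of 0.21 with an interval of -0.56 to 0.98, and PEX18 one of -0.74 with an interval of -1.42 to -0.05 (limma adjusted p = 0.0787, 0.00893 to 0.243 over the alternatives). PEX18 had signals of 139, 92.8 and 137 (control) and 102, 53.1 and 70.3 (zymolyase). It passed as lower after median centring (-0.90), with the replicate block, without zymolyase array 1 (-0.98) and without both arrays numbered 1 (-0.88).

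Receptors dock at a membrane complex of Pex13, Pex14 and Pex17. Of its 3 genes 1 rose and 1 fell, where 22.5% of all genes rose and 20.0% fell. PEX14, the main docking protein, had signals of 392, 441 and 477 (control) and 950.0, 1182 and 1144 (zymolyase), a rise of 2.50-fold (log2 1.32, SE 0.16, limma adjusted p = 0.00110). PEX17, for the smaller partner of Pex14, went the other way, from 154, 171 and 209 to 99.8, 64.6 and 70.6, a fall of 2.29-fold (log2 -1.20, SE 0.23, limma adjusted p = 0.00554). PEX13, the complex's SH3-domain protein, did not pass, at 0.29 (95% interval -0.16 to 0.74). The log2 ratio of PEX14 to PEX17 within an array was 1.35, 1.36 and 1.19 (control) and 3.25, 4.19 and 4.02 (zymolyase). The difference was 2.52 (SE 0.29, exact permutation p = 0.1, the smallest possible). PEX14 was higher and PEX17 lower on every zymolyase array than on any control array. The ratio therefore had to separate the groups and give this p, which adds no support. Both genes are shorter than the median gene of 1236 bases, at 1026 and 600 bases, and with the length trend removed PEX14 had a change of 1.46 and PEX17 of -0.89, both still past the threshold. Over the alternatives the limma adjusted p ranged from 2.19e-07 to 0.00794 for PEX14 and from 1.97e-05 to 0.0261 for PEX17.

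After delivery, receptors are tagged with ubiquitin and pulled back to the cytosol. None of the 4 genes of the tagging step passed by limma, where 42.5% of all genes did, with 1, PEX22, at an unadjusted p under 0.05. PEX2 and PEX10, for RING ubiquitin ligases, had log2 changes of -0.02 (95% interval -0.38 to 0.34) and 0.18 (-0.25 to 0.61), and PEX4, for the ubiquitin-conjugating enzyme, of -0.08 (-0.58 to 0.42). PEX22, which anchors Pex4 to the membrane, had signals of 371, 718 and 785 (control) and 709, 1290.1 and 1247 (zymolyase). Array 1 was the lowest in both groups, so the groups overlapped although each zymolyase array was above the control array of the same number. The log2 change of 0.82 (SE 0.34) did not pass (limma adjusted p = 0.0873, 1.03e-04 to 0.248 over the alternatives). It passed with the replicate block, with the length trend removed (1.11), without zymolyase array 1 (1.10) and without both arrays numbered 1 (0.76), whereas without control array 1 the change was 0.48 (limma adjusted p = 0.183).

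Extraction of the receptor is driven by an ATPase that contains Pex6 and is held at the membrane by Pex15. PEX6 rose 2.07-fold, from 372, 359 and 429 to 678, 925 and 815 (log2 1.05, SE 0.17, limma adjusted p = 0.00276, 3.68e-06 to 0.0357 over the alternatives). At 3093 bases it is among the longest of the 41 genes, and its rise was 0.54 with the length trend removed. PEX15 lay lower on every zymolyase array, at 252, 230.3 and 257 against 348, 291 and 368, without passing (log2 -0.44, SE 0.16, limma adjusted p = 0.0590, 0.0110 to 0.184 over the alternatives). It passed as lower after median centring (-0.60) or quantile normalization (-0.48), with the block and without both arrays numbered 1 (-0.43). PEX8, a protein of the inner membrane face that links docking to the RING ligases, had signals of 645, 680 and 699 (control) and 943, 1013 and 910 (zymolyase). Its rise of 1.42-fold (log2 0.50, SE 0.13, limma adjusted p = 0.0182) was the smallest of the 8. It missed the threshold after median centring (0.34) or quantile normalization (0.36), with the length trend removed (0.32) and with control array 2, control array 3, zymolyase array 2 or zymolyase array 3 left out. Its limma adjusted p lay between 0.00556 and 0.0991 over the alternatives.

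Membrane proteins use another route, in which Pex19 chaperones them to Pex3 on the organelle. PEX19 had signals of 736, 1052 and 1198 (control) and 2188, 3627 and 2266 (zymolyase). The groups lay well apart although zymolyase array 2 stood above its partners, and the rise was 2.69-fold (log2 1.43, SE 0.26, limma adjusted p = 0.00401). Without zymolyase array 2 the change was 1.19 and still passed. PEX3 was lower on every zymolyase array, at 364, 368 and 319.9 against 387, 427 and 481, and did not pass (log2 -0.30, SE 0.16, limma adjusted p = 0.161, 0.0370 to 0.404 over the alternatives). It passed as lower after median centring (-0.46) and without both arrays numbered 1 (-0.40).

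**Figure D3:**
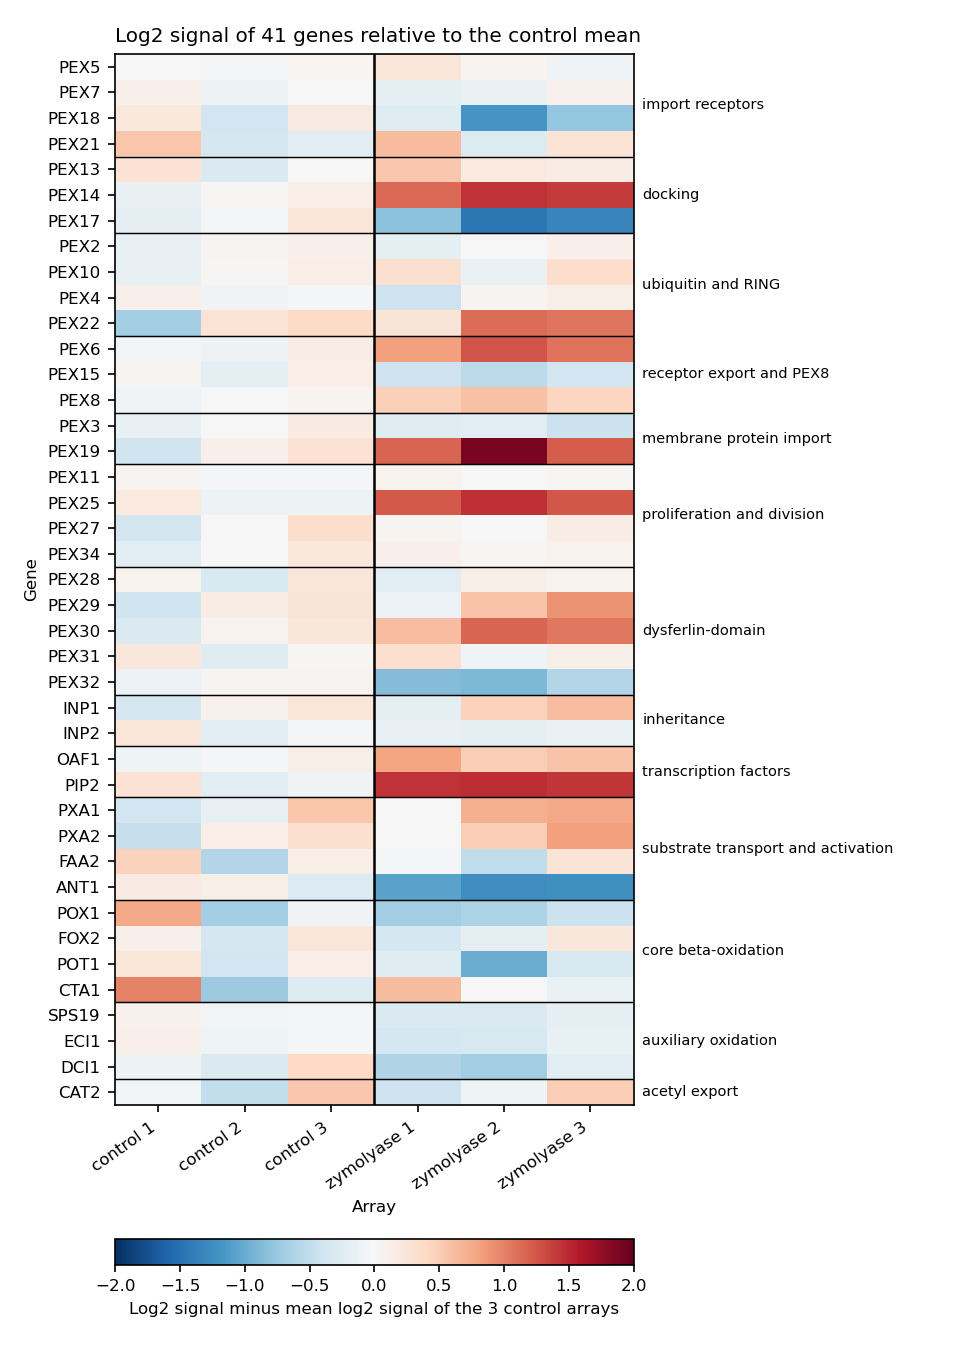
Log2 signal of the 41 genes on each of the 6 arrays, minus the mean of the 3 control arrays, grouped by role. PEX14, PEX19, PEX25 and PIP2 are red and PEX17 and ANT1 blue on all 3 zymolyase arrays, whereas PEX22 and CTA1 differ most between array 1 and the other arrays of the same group.

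Among the proteins that elongate and divide peroxisomes, 1 gene of 4 rose, where 22.5% of all genes did. PEX25, a membrane protein of the Pex11 family that remodels the membrane as peroxisomes proliferate, had signals of 905, 744 and 744 (control) and 1857, 2175 and 1883 (zymolyase), a rise of 2.48-fold (log2 1.31, SE 0.15, limma adjusted p = 0.00108). Every zymolyase array stood at more than the highest control array, and the change was 1.36 with the length trend removed. Its relatives did not pass: PEX11, the founding member, had a log2 change of 0.03 (95% interval -0.26 to 0.32) and PEX27 of 0.06 (-0.42 to 0.55). PEX34, a partner of these proteins, had a log2 change of 0.06 (-0.30 to 0.42). PEX11 is a known target of Oaf1 and Pip2, and its 6 values, 1345, 1271 and 1269 (control) and 1358, 1286 and 1315 (zymolyase), had SDs of 43.4 and 36.2.

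A further 5 membrane proteins restrain peroxisome number and size, and some of them sit in the endoplasmic reticulum. Here 1 gene rose and 1 fell, where 22.5% and 20.0% of all genes did. PEX30, whose protein shapes the regions of the endoplasmic reticulum where new peroxisomes form, had signals of 305, 390.2 and 438 (control) and 572, 836 and 779 (zymolyase) (1.93-fold higher, log2 0.95, SE 0.21, limma adjusted p = 0.00875). PEX32 fell 1.72-fold, from 306, 345 and 344 to 181, 178 and 220.1 (log2 -0.79, SE 0.16, limma adjusted p = 0.00706). The groups were separate for both. The log2 ratio of PEX30 to PEX32 was -0.01, 0.18 and 0.35 (control) and 1.66, 2.23 and 1.82 (zymolyase). The difference was 1.73 (SE 0.20, exact permutation p = 0.1, the smallest possible). As the separate groups of the 2 genes lay in opposite directions, this p was fixed beforehand and adds no support.

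The close relatives of these genes did not pass. PEX31 had a log2 change of 0.12 (95% interval -0.31 to 0.55) and PEX28 of -0.01 (-0.49 to 0.47). PEX29 went from 338, 494 and 533 to 412, 666 and 836, again lowest on array 1 of each group (log2 0.46, SE 0.29, limma adjusted p = 0.240, 0.00470 to 0.588 over the alternatives). It passed as higher with the block, without zymolyase array 1 (0.74) and without both arrays numbered 1 (0.54). Its change was 0.25 without control array 1 and 0.23 without zymolyase array 3 (limma adjusted p = 0.502 and 0.588). INP1, which tethers peroxisomes in the mother cell, had a change of 0.30 (-0.30 to 0.89) and INP2, the receptor by which the motor Myo2 draws them into the bud, of -0.17 (-0.58 to 0.24). With the length trend removed, INP2 passed as lower (-0.51), in a range of limma adjusted p from 0.0333 to 0.860 over the alternatives.

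Fatty acids reach the matrix through the transporter made of Pxa1 and Pxa2, or cross as free acids and are activated by the acyl-CoA synthetase Faa2 with ATP that Ant1 brings in. Of these 4 genes only ANT1 passed, as lower, where 20.0% of all genes did. It had signals of 615, 595 and 457 (control) and 262, 233 and 234 (zymolyase), a fall of 2.27-fold (log2 -1.18, SE 0.17, limma adjusted p = 0.00196) that remained at -1.01 with the length trend removed. PXA1 had signals of 90.1, 105 and 173 (control) and 119, 193 and 200.1 (zymolyase), and PXA2 of 111, 168 and 192 against 154, 217 and 269.8. Each gene of the transporter was higher on every zymolyase array than on the control array of the same number, but the groups overlapped, and changes of 0.49 (SE 0.31) and 0.44 (SE 0.28) did not pass (limma adjusted p = 0.236 and 0.244). With the replicate block both passed, and without both arrays numbered 1 PXA1 did. Without control array 1 the changes were 0.30 and 0.21, and with the length trend removed they were 0.05 and 0.00. Over the alternatives the limma adjusted p ranged from 0.0484 to 0.916 for PXA1 and from 0.0275 to 0.998 for PXA2. FAA2 had a log2 change of -0.10 (95% interval -0.82 to 0.62).

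The enzymes of the oxidation spiral and the catalase that works beside them, the first 4 of the 7 enzymes, came next. POX1, the acyl-CoA oxidase of the first step, had signals of 213, 79.1 and 121 (control) and 78.5, 81.6 and 93.9 (zymolyase). The control arrays were spread widely, with array 1 far above the others, and the change of -0.59 (SE 0.35) was -0.21 without control array 1. FOX2, the multifunctional enzyme of the middle steps, had a log2 change of -0.10 (95% interval -0.60 to 0.41). POT1, the thiolase that ends each round, went from 383, 247 and 354 to 274, 162 and 258, lower by 0.45 to 0.61 in each pair of same-numbered arrays while the groups overlapped (log2 -0.52, SE 0.26, limma adjusted p = 0.148). CTA1, the catalase that removes the hydrogen peroxide made by Pox1, had signals of 170.2, 51.8 and 71.4 (control) and 134, 85.1 and 77.8 (zymolyase), with array 1 the highest in both groups. Its change of 0.16 had an interval of -0.86 to 1.19, too wide to leave out a 2-fold change.

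Unsaturated fatty acids such as oleate need extra enzymes, and their 3 genes all had negative changes that did not pass. SPS19, the dienoyl-CoA reductase, had signals of 409, 368 and 375 (control) and 314, 312 and 337 (zymolyase) (log2 -0.26, SE 0.14). ECI1, the enoyl-CoA isomerase, went from 436, 383 and 401 to 321, 326 and 365 (log2 -0.27, SE 0.15). Every zymolyase array was below every control array for both genes. DCI1, a relative of ECI1, had a log2 change of -0.51 (SE 0.25) with overlapping groups. The limma adjusted p of the 3 was 0.184, 0.175 and 0.139. CAT2, the carnitine acetyltransferase that readies acetyl units for export, had nearly equal mean signals of 377 ± 137 and 374 ± 123 (SD, n = 3).

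**Figure D4:**
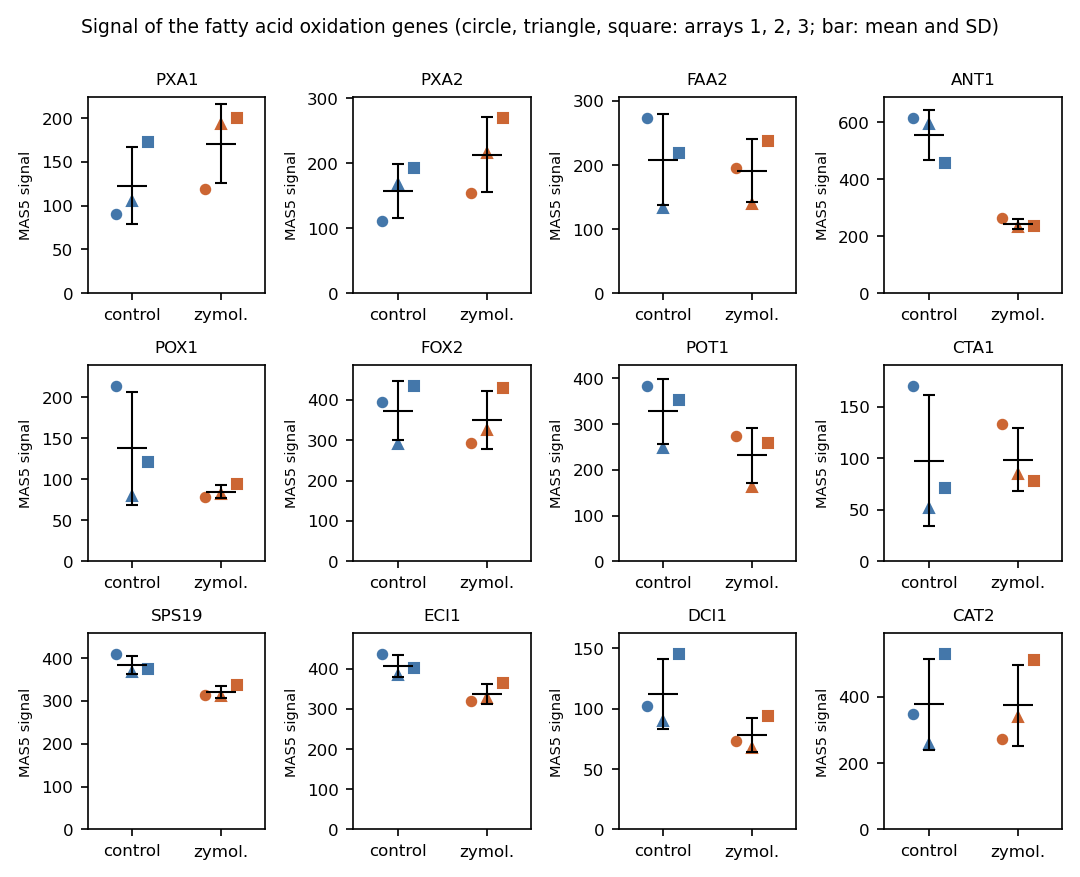
MAS5 signal on a linear axis from 0 for the 12 genes of fatty acid transport, oxidation and acetyl export, with 1 point an array and the mean with its SD. ANT1 is the only gene of the 12 past the threshold, SPS19 and ECI1 also have separate groups, and POX1 spreads from 79.1 to 213 in the control arrays.

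Whether oxidation genes passed thus turned on the setting. After quantile normalization, as on the deposited scaling, none of the 7 enzymes passed, with ECI1 the nearest (limma adjusted p = 0.0553). After median centring 4 of the 7 enzymes passed as lower and 0 as higher, where 26.8% of all genes were lower: POT1 (-0.67), DCI1 (-0.67), ECI1 (-0.43) and SPS19 (-0.42). With the length trend removed ECI1 and SPS19 had changes of -0.03 each, and POX1 passed as lower (-0.97). With the replicate block POT1 and DCI1 passed as lower, and without both arrays numbered 1 POT1 did (-0.53). The change of POT1 was -0.28 without zymolyase array 2, and that of DCI1 -0.31 without control array 3. Over the alternatives the lowest limma adjusted p of these 5 genes was 0.0122, for POT1, and the highest 0.888, for ECI1.

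The length of the gene moved with the change among these genes as it did over the array. Spearman's rho between change and coding length was 0.29 over the 41 genes and 0.34 over all genes, a description across genes that share the same 6 arrays. Of the 8 genes that rose, PIP2, OAF1 and PEX6 are among the longest. PEX30 and PEX8, of 1572 and 1770 bases, are also longer than the median gene. PEX14, PEX19 and PEX25, of 1026, 1029 and 1185 bases, rose from the shorter side of the median. With the trend removed 7 genes were higher and 5 lower, where 18.4% and 19.7% of all genes were. OAF1 and PEX8 lost their calls, and PEX22 gained one as higher and INP2 and POX1 as lower.

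**Figure D5:**
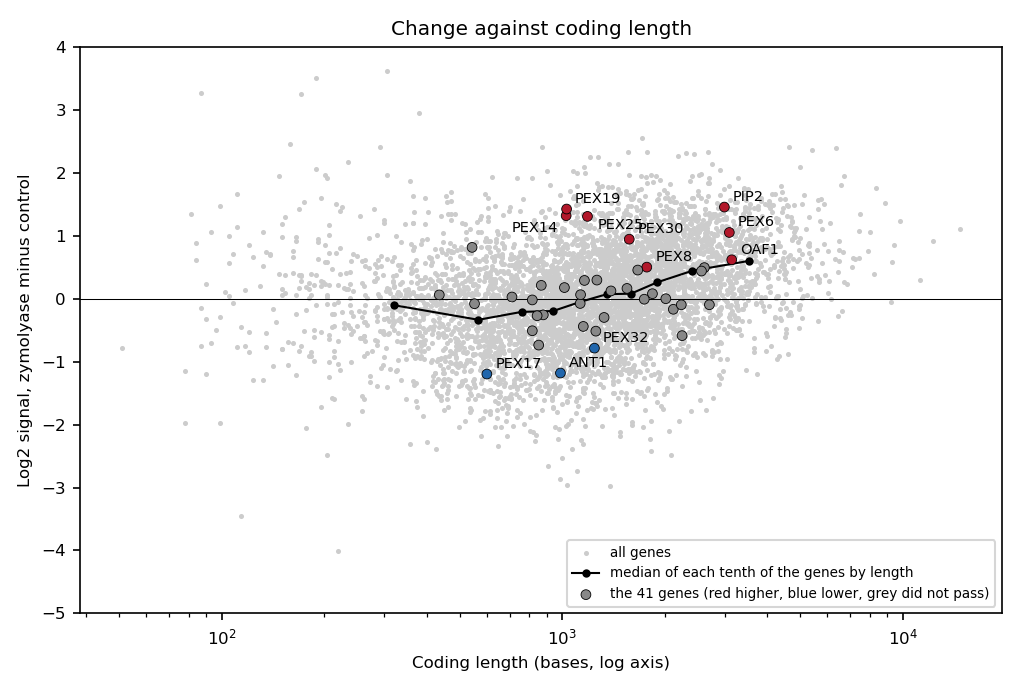
Log2 change of zymolyase minus control against coding length on a log axis, for all 5449 genes (grey dots) and the 41 genes (large points), with a line through the medians of 10 equal classes by length. OAF1 at 0.62 lies on the line, whereas PEX14, PEX19 and PEX25 lie above it by more than 1 log2 unit and ANT1 and PEX17 below it.

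Arrays numbered 1 stood apart within both groups. For 17 of the 41 genes array 1 lay on the same side of arrays 2 and 3 in control and in zymolyase (41.5%), against 50.8% of all genes. It was the highest in both groups for 8, among them CTA1, POT1 and ANT1, and the lowest in both for 9, among them PEX22, PEX29, PEX30, PXA1 and PXA2. Without these arrays 11 genes were higher and 7 lower, where 32.6% and 28.3% of all genes were, and the 11 called on all arrays were all called again.

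Genes outside the rule, of peroxisomes, fatty acid use and related steps and regulators, were read from 6 lists of 44 measured genes in all. Not all of them act on fatty acids. Of the 44 genes, 5 rose, 7 fell and 32 did not pass, so 27.3% were called, where 42.5% of all genes were. Of 12 other peroxisomal enzymes 0 rose and 2 fell by limma, 1 and 6 at an unadjusted p under 0.05, and 0 and 6 after median centring. Over all genes the shares lower were 20.0%, 24.2% and 26.8% in the same order, and the shares higher 22.5%, 27.1% and 17.5%. IDP3, the peroxisomal isocitrate dehydrogenase that supplies NADPH for the oxidation of unsaturated acids, fell 1.84-fold from 165 ± 9.85 to 90.3 ± 13.0 (SD, n = 3, limma adjusted p = 0.00788), and GPD1, a glycerol phosphate dehydrogenase that is also found in peroxisomes, fell 1.59-fold (limma adjusted p = 0.0128). Without control array 2 the log2 change of GPD1 was -0.57, against -0.67 on all arrays, and missed the threshold (limma adjusted p = 0.0539, and as low as 0.00178 elsewhere). In the glyoxylate cycle, which builds sugar from the acetyl units of oxidation, 1 of 5 genes fell, MDH2, for cytosolic malate dehydrogenase, by 2.16-fold (log2 -1.11, SE 0.22, limma adjusted p = 0.00570).

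Activation and acetyl transfer outside the peroxisome each had a single call, as lower, where 20.0% of all genes were lower. FAA1, the main acyl-CoA synthetase for imported fatty acids, fell 1.77-fold from 3403 ± 187 to 1921 ± 183 (limma adjusted p = 0.00287), 1 of 5 in its list. ACS1, an acetyl-CoA synthetase repressed by glucose, fell 1.95-fold from 316 ± 54.8 to 162 ± 26.4 (limma adjusted p = 0.00715), 1 of 5 in the list of the carnitine shuttle. Of 8 regulators 2 rose and 0 fell, where 22.5% and 20.0% of all genes did. RSF2, a zinc-finger protein needed for growth on glycerol, rose 2.82-fold (log2 1.49, SE 0.23, limma adjusted p = 0.00235), and by 0.88 with the length trend removed. OAF3, a negative regulator in the oleate response, rose 1.46-fold (limma adjusted p = 0.0429, 0.00207 to 0.640 over the alternatives). It missed the threshold after either rescaling, without the intensity trend, with the length trend removed (0.10) and without control array 2 (0.40), control array 3 (0.61), zymolyase array 2 (0.60) or zymolyase array 3 (0.44). ADR1 itself had log2 change -0.55 (SE 0.20), with every zymolyase array below every control array, and did not pass (limma adjusted p = 0.0549, 0.00365 to 0.179 over the alternatives). It passed as lower after median centring (-0.71), with the length trend removed (-1.14), with a pseudocount of 16 (-0.48), without the intensity trend, with the replicate block and without both arrays numbered 1 (-0.56).

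Of 9 genes for peroxisome division, movement and breakdown, 3 rose and 2 fell, where 22.5% and 20.0% of all genes did. ATG11, the scaffold of selective autophagy that takes part in the breakdown of peroxisomes, rose 2.56-fold from 354 ± 69.8 to 898 ± 93.3 (limma adjusted p = 0.00161). MDV1, an adaptor of the division machinery shared with mitochondria, rose 1.80-fold (limma adjusted p = 0.00301). FIS1, the membrane anchor of that machinery, fell 1.77-fold (limma adjusted p = 0.0207), so 2 genes of one machinery carried opposite calls. With the length trend removed the rises were 0.49 for MDV1 and 0.79 for ATG11 on the log2 scale, both still past the threshold. The call of FIS1 was lost with the length trend removed (-0.56), without control array 2 (-0.72), control array 3 (-0.69) or zymolyase array 2 (-0.79). Its limma adjusted p lay between 8.68e-06 and 0.0785 over the alternatives. RHO1, a GTPase of wall signalling that also acts at peroxisomes, fell 1.61-fold (limma adjusted p = 0.00716), and did not pass with the length trend removed (-0.38, limma adjusted p = 0.0700, and as low as 0.00172 elsewhere). MYO2, the motor of organelle inheritance, named after its values were seen, rose 2.36-fold (limma adjusted p = 0.0254, 2.94e-05 to 0.253 over the alternatives). It missed the threshold with the length trend removed (0.59), after median centring (1.08) and without zymolyase array 2 (1.02) or 3 (1.16).

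SPS19 is also switched on in sporulation, and 10 sporulation genes had a summed signal between 499 and 561 on control and between 563 and 584 on zymolyase arrays. Of the 10 genes 0 rose and 1 fell by limma, with 1 each at an unadjusted p under 0.05. Over all genes 22.5% rose and 20.0% fell by limma, and 27.1% were higher and 24.2% lower at that unadjusted p. The gene that fell was DIT1, of spore wall synthesis, from 57.4 ± 12.6 to 27.4 ± 7.18 (SD, n = 3, limma adjusted p = 0.0254, 0.00627 to 0.0943 over the alternatives), and its call was lost without control array 2 (-1.11), control array 3 (-0.92), zymolyase array 1 (-0.84) or zymolyase array 2 (-1.19). Among the 7 a-specific genes 1 rose, MFA1 for the a-factor pheromone, from 30.3 ± 7.43 to 95.9 ± 23.3 (limma adjusted p = 0.00350), and the list's summed signal lay between 207 and 255 on control and between 244 and 402 on zymolyase arrays. None of the 4 alpha-specific genes passed by limma, with 1 at an unadjusted p under 0.05. The summed signal of the alpha-specific list lay between 12320 and 15105 on control and between 9813 and 16822 on zymolyase arrays. The part of sporulating cells, or of cells of either mating type, in the results was not tested.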

How the data were processed

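The authors deposited MAS5 signal intensity on a linear scale for 6 single-colour Affymetrix arrays, per the submitters' processing notes. Its version and detection calls are not given in the sources used here. The mean after trimming 2% at each end was 500.2 to 500.3 for each array, which shows a common scaling. Of 10928 probe sets, 5498 carried 1 S. cerevisiae gene through the platform annotation, with 12 symbols updated from the R64 gene table, 1746 carried a gene of the second species, 1 several genes and 3683 none. Where a gene had several probe sets (47 genes) the brightest was used. Zeros, none in S. cerevisiae probe sets, were set to 0.1 before log2.

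Changes were fitted with limma 3.58.1 in R 4.3.3 (lmFit, eBayes with an intensity trend) and Benjamini-Hochberg adjustment over all genes at 0.05. The fit was tested on simulated data. All 41 genes are named. Those past the threshold and at least 2-fold, with OAF1 and PIP2, were to be given by array, as were further ones for context. From each other list up to 4 called genes with the smallest adjusted p, and ADR1, are named. The genes and lists were chosen with earlier results of these data known. Alternatives were median centring, quantile normalization, a pseudocount of 16, leaving out the dimmest 20% of genes, no intensity trend, the replicate number as a block, removal of a lowess trend on gene length (span 0.3), the mean of a gene's probe sets, leaving out each array, and leaving out both arrays numbered 1. Within-array ratios were added after the data were seen. Deviations of same-numbered arrays from their group means correlated at 0.49, 0.20 and 0.41 across genes, all above 0.1, the level taken to mark pairs. Unlike numbers 2 and 3 correlated at 0.20 and 0.23, so the data set the arrays numbered 1 apart but do not separate pairs 2 and 3. No label states a pairing. The reported fit had no block, and calls that the block changed are stated for the 41 genes and ADR1, not for all genes of the other lists. The number of arrays limits the precision. Protein and promoter sequences were not used here.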

Additional observations from a re-analysis of the deposited data

How the results depend on the processing

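The number of the 41 genes that passed as lower was 3 on the deposited scaling and 4 after quantile normalization. It was 10 after median centring, 7 with the replicate block and 5 with the length trend removed, and ranged from 3 to 7 when arrays were left out. The number higher, 8, ranged from 6 to 11 when arrays were left out. The median change of the 41 genes, 0.06, was -0.10 after median centring, as that setting lowers every change. Calls over all genes ranged from 1619 to 3322 when arrays were left out, and median centring gave 951 genes higher and 1463 lower in place of 1224 and 1092. ANT1, PEX14, PEX19, PEX25, PEX30, PEX32, PEX6 and PIP2 passed under all 15 alternatives, and PEX17 under all that tested it, as it was among the dimmest 20% of genes. No gene of the 41 changed sign where it passed on either side. The block changed calls of PEX15, PEX18, PEX22, PEX29, PXA1, PXA2, POT1 and DCI1 among the 41. The difference in the log2 3′/5′ ratio ranged from 1.61 to 1.95 when arrays were left out, and the exact permutation test used for it cannot pass at this number of arrays. Causes of these shifts were not tested. The arrays gave no detection calls, so a floor for dim genes rests on the second species' probe sets.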
